A study of Mus musculus and Sus scrofa with 30 samples.

Results

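Fat cell formation was induced in dedifferentiated fat (DFAT) cells of the pig with dicoumarol, with magnolol, with both or with neither, and the 12 bulk RNA-seq libraries of this 2 by 2 design are described here, out of 30 libraries in the series. They were chosen by their treatment labels alone: 3 libraries each of vehicle (DMSO), dicoumarol, magnolol, and the combination. DFAT cells are mature fat cells that have lost their lipid and returned to a dividing, fibroblast-like state; these came from pig subcutaneous fat. All groups were induced in the same medium, with 2% serum and, as inducers, 20 µM biotin, 0.5 µM dexamethasone, 10 µM pantothenate and 12.5 µM of the phosphodiesterase inhibitor IBMX, and were harvested on day 5. The labels name no dose of either compound. Nor do they say whether the libraries of a group came from separate cultures or animals, so the p-values measure only the spread between these libraries. The 3 rosiglitazone libraries of the same cells entered the fit to help estimate that spread, and counted in the mean that decided which genes were tested. The question of the design is whether the combination did more, or less, than its parts.

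As a fat cell forms, the receptor PPARγ and its partner C/EBPα switch on genes for storing lipid. Perilipins (PLIN1, PLIN2, PLIN4) coat the lipid droplet, FABP4 and FABP3 carry fatty acids in the cytoplasm, and ADIPOQ encodes the hormone adiponectin. The induction medium also holds IBMX, which blocks phosphodiesterases, the enzymes that break down cAMP. cAMP acts through protein kinase A, whose regulatory subunits include PRKAR2B, and it induces genes such as NR4A1 and the phosphodiesterase genes PDE4B and PDE4D. Dicoumarol is a coumarin that inhibits the quinone reductase NQO1 and vitamin K recycling. Magnolol is a lignan of magnolia bark.

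The combination was set against both of the usual expectations. The added expectation is the dicoumarol mean plus the magnolol mean minus the vehicle mean, in normalized counts, and the departure is the observed combination mean minus that sum. The multiplied expectation is the dicoumarol mean times the magnolol mean divided by the vehicle mean. For it the means were taken on log2(value + 1) and turned back into normalized counts. Observed means and the added expectation use plain means. Its counterpart in the fit is the interaction, the combination minus dicoumarol difference less the magnolol minus vehicle difference, on log2(value + 1). When both compounds move a gene the same way, up or down, the multiplied expectation lies above the added one by arithmetic, apart from small shifts due to the log2 means. A gene can therefore exceed the sum of its changes and fall short of their product, and for genes that fall strongly the sum can even lie below 0, where no library can be.

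The table held 34307 genes, of which 14819 had a mean of at least 10 normalized counts over the 15 libraries and were tested. The estimated depth of the 12 libraries was 54.4 to 70.5 M reads. The summed normalized counts moved with treatment, from 56.9 to 59.3 M in vehicle to 62.8 to 69.3 M in the combination, and the mitochondrial share from 9.58% to 10.2% in vehicle to 12.2% to 15.1% in the combination. Their part in the results was not tested as such; with libraries rescaled to equal totals, the tests below called 6 and 14 genes in place of 12 and 18. Of 14 stromal markers of DFAT cells, 12 had a mean of at least 10 normalized counts, such as PDGFRA at 26236 to 65376. DLK1 and PI16 did not, and CD34 was low at 7.13 to 25.5. Of 9 leukocyte and macrophage genes, 2 reached that mean, CD14 at 619 to 950 and CD68 at 47.9 to 95.3. PTPRC and CD3E were at or near 0. Of 8 endothelial genes, 2 reached it, ERG at 262 to 567 and PECAM1 at 149 to 236, and KDR was at 0. These ranges are over the 15 libraries.

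Dicoumarol alone changed 288 genes, magnolol alone 626, and the combination 1508 of the 14819 (1.94%, 4.22% and 10.2%; limma, adjusted p under 0.05). Rescaling the libraries to equal totals put the median log2 change of all genes at −0.05 with dicoumarol, −0.14 with magnolol and −0.17 with both, and shifted the split of higher and lower calls from 135 and 153 to 87 and 219 with dicoumarol, from 438 and 188 to 313 and 2263 with magnolol, and from 906 and 602 to 540 and 3989 with both. Against dicoumarol alone the combination changed 348 genes (2.35%), 297 of them higher (2%) and 51 lower (0.344%). Against magnolol alone it changed 92 (0.621%), 57 higher (0.385%) and 35 lower (0.236%), or 290 with the replicate number as a block, a number under which the magnolol and combination libraries deviated together. Few genes departed from either expectation. The interaction was called for 12 genes (0.081%), 6 above 0 and 6 below (0.0405% each). The departure from the sum was called for 18 genes (0.121%), of which 17 lay above it (0.115%) and 1 below (0.00675%). At an unadjusted p under 0.05 the counts were 582 and 601 genes. Each is under a share of 0.05 of the 14819, the share expected with no effect, so neither shows an excess. In all 22 genes were called, 8 in both tests: PLIN1, PLIN4, PRKAR2B, PDE4D, EDNRA, NR4A1, IGF1 and CAT. In 7 of the 17 genes above the sum the means with each compound were above vehicle, and in 10 both were below it.

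**Figure D1:**
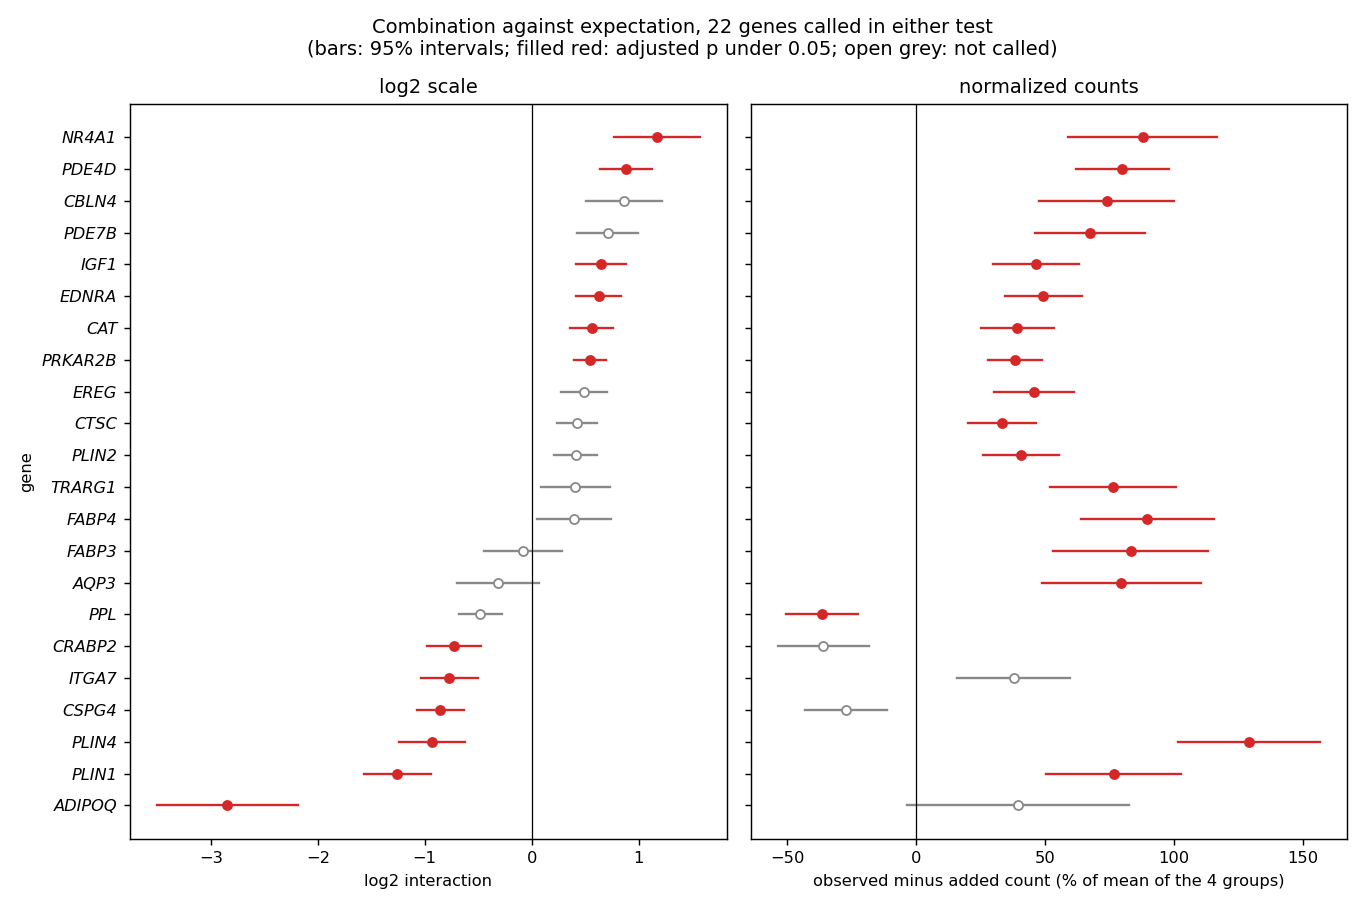
The 22 called genes. The left panel shows the log2 interaction and the right panel the observed minus added normalized count as a percentage of the mean of the 4 groups, both with 95% intervals. Filled red points were called at an adjusted p under 0.05 and open grey points were not. PLIN1 and PLIN4 lie left of 0 in one panel and right of it in the other, while PDE4D and NR4A1 lie right of 0 in both.

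Of 12 tested genes of the lipid droplet, 3 rose with dicoumarol, 7 with magnolol and 8 with both. Of all genes, 0.911%, 2.96% and 6.11% rose. The combination was called above the sum for 3 of the 12, PLIN1, PLIN2 and PLIN4, against 0.115% of all genes. PLIN4, a perilipin of nascent droplets, stood at 217, 219 and 177 normalized counts in the vehicle libraries, 1198, 1061 and 1028 with dicoumarol, 2279, 2473 and 2083 with magnolol, and 6619.8, 6297 and 6248 with both. The 4 groups did not overlap, and the combination mean of 6388 stood between the added expectation of 3170.1 and the multiplied one of 12176. It exceeded the sum by 3218 ± 326 normalized counts (SE; limma adjusted p = 0.000209). Its interaction was −0.93 on the log2 scale (95% interval −1.24 to −0.62; limma adjusted p = 0.0168).

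PLIN1, the perilipin that guards the droplet against lipases, followed the same order. Vehicle libraries held 130.2, 155 and 135, dicoumarol 736, 597 and 549.6, magnolol 1872, 2332 and 2144, and the combination 3969, 3829 and 3909.9. The combination libraries lay within 3829 to 3969, above every magnolol library. They passed the sum of 2603 by 1299 ± 209.97 normalized counts (SE; limma adjusted p = 0.013) and stayed under the product of 9338, with an interaction of −1.26 on the log2 scale (95% interval −1.57 to −0.95; limma adjusted p = 0.0011). PLIN2, the perilipin found in most cells that store some lipid, was high already in vehicle (4128, 3863 and 4109.8) and rose a little with magnolol (4927, 5628 and 5159); dicoumarol (5036, 4793 and 4549) did not pass the test. In the combination it stood at 8766, 8021 and 8027, 2274 ± 387 normalized counts (SE; limma adjusted p = 0.0174) above the sum. Its interaction of 0.41 was not called (adjusted p = 0.282).

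The 3 perilipin calls did not hold equally well. PLIN4's departure and PLIN1's interaction were called in each fit that left out 1 of the 12 libraries. PLIN1's departure was lost without magnolol replicate 1 (adjusted p = 0.0535) or any of the combination libraries (0.14, 0.0634 and 0.0668 for replicates 1 to 3). PLIN4's interaction was lost without dicoumarol replicate 1 or 2, magnolol replicate 2 or combination replicate 2 (0.0533 to 0.0658). PLIN2's departure was kept only without vehicle replicate 2, dicoumarol replicate 1, magnolol replicate 2 or combination replicate 3, and the other 8 omissions gave 0.0514 to 0.171. Among the other settings, PLIN1's departure was lost with no filter on low values (0.106) and with equal totals (0.0671). PLIN4's interaction was lost under 4 of 10 settings (0.0728 to 0.136), and PLIN2's departure under 5 of 9 (0.0609 to 0.324). In bulk samples such as these, fewer cells of a type and less RNA per cell cannot be told apart.

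**Figure D2:**
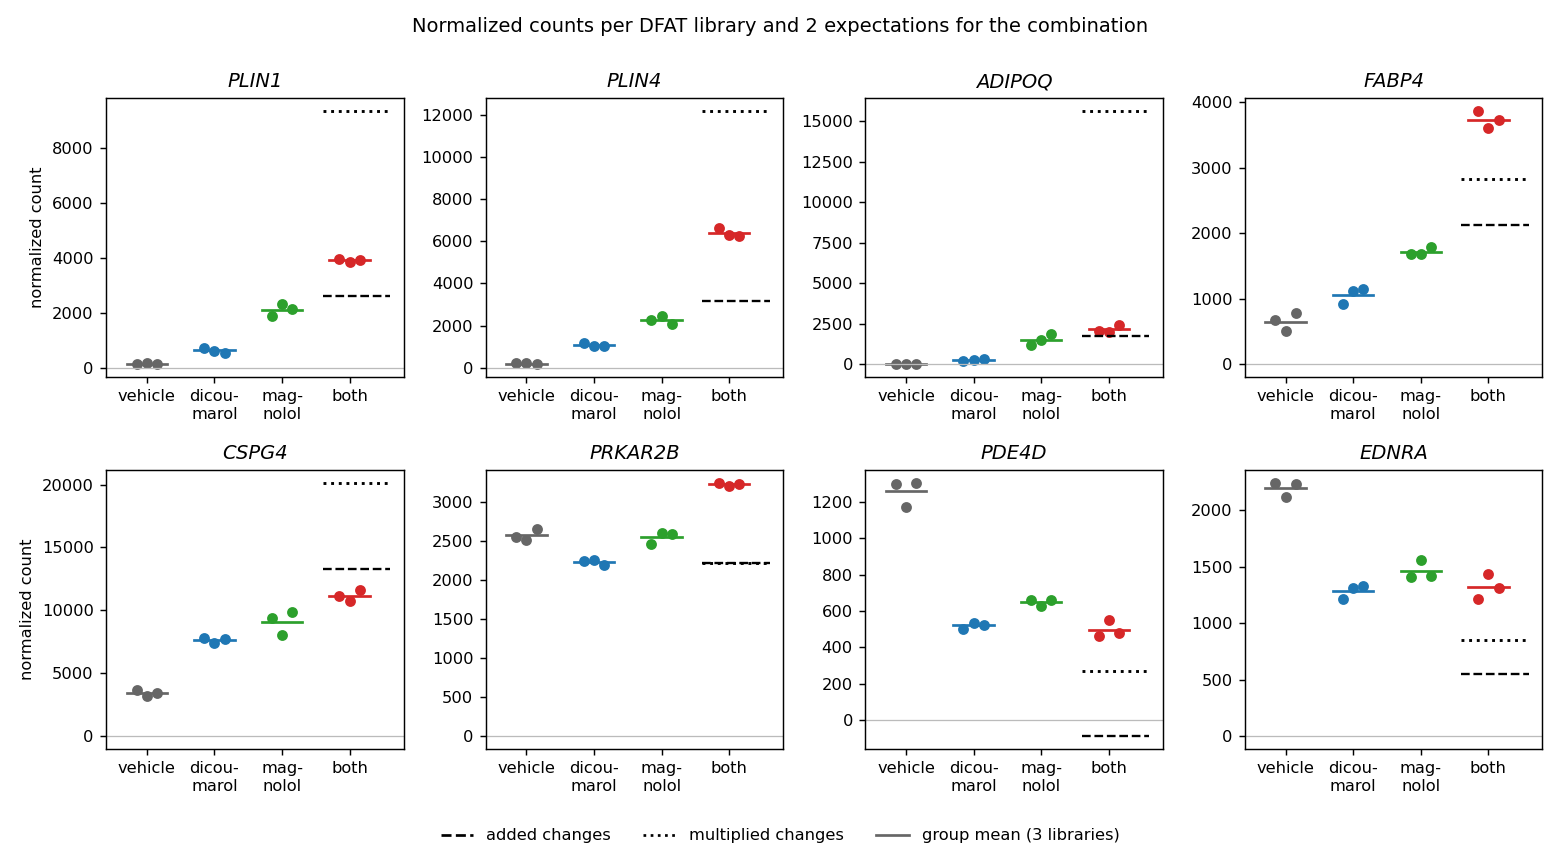
Normalized counts of 8 genes in the 12 libraries. Each point is 1 library, the solid line is the group mean of 3, the dashed line the added expectation and the dotted line the multiplied expectation for the combination, on linear axes. The combination lies between the lines for PLIN1, PLIN4 and ADIPOQ, above both for FABP4, PRKAR2B, PDE4D and EDNRA, and below both for CSPG4. The added expectation of PDE4D lies below 0.

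For ADIPOQ the added and multiplied expectations lay far apart. The adiponectin gene was low in vehicle (23.7, 42.0 and 19.3 normalized counts), rose to 237, 307 and 335 with dicoumarol, and to 1176, 1521 and 1868 with magnolol. In the combination it stood at 2091, 1997 and 2463. All combination libraries lay above all magnolol libraries, yet the difference between them, 0.54 on the log2 scale, was not called (adjusted p = 0.571). The mean of 2184 was close to the sum of 1786, with a departure of 397 ± 205 normalized counts (SE; limma adjusted p = 0.999). It was far below the product of 15637, and the interaction was −2.85 on the log2 scale (95% interval −3.50 to −2.19; limma adjusted p = 0.000897), the largest in size of the 12. The fold over vehicle rests on counts of 19.3 to 42.0 there; with pseudocounts of 0.5 or 5, and in each fit that left out a library, the call was kept.

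Of 17 tested genes of fatty acid uptake and binding, 3 were called above the sum, against 0.115% of all genes. None was called for the interaction, against 0.081% of all genes. FABP4, the adipocyte fatty acid-binding protein, went from 673, 501 and 779 in vehicle to 921, 1114 and 1154 with dicoumarol, 1684, 1679 and 1789 with magnolol and 3871, 3610.4 and 3726 with both. The groups did not overlap, and the combination mean was above the sum of 2129.6 and the product of 2836. The departure was 1606 ± 218 normalized counts (SE; limma adjusted p = 0.00353). The interaction, 0.40 (95% interval 0.05 to 0.74), was not called (adjusted p = 1). The departure of FABP4 was called in each fit that left out a library and was lost with no filter on low values (0.0516).

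FABP3, the heart-type fatty acid-binding protein, stood at 1138, 941 and 1052, 2496, 2198 and 2013 and 4354, 4789.5 and 5003 in vehicle, dicoumarol and magnolol. The combination libraries held 9956, 8401 and 10312, all above the sum of 5907 and on either side of the product of 10069.5. FABP3's departure was 3649 ± 624 normalized counts (SE; limma adjusted p = 0.0174) and its interaction −0.08 (95% interval −0.45 to 0.29). AQP3, an aquaglyceroporin that lets glycerol through, held 168, 221 and 165 in vehicle, 495, 442 and 391 with dicoumarol, 1051, 1237 and 1030.1 with magnolol and 2390.3, 1974 and 2036 with both, and its departure was 769 ± 142 normalized counts (SE; limma adjusted p = 0.0354). TRARG1, a regulator of glucose transporter traffic in fat cells, held 452, 466 and 361, 789.7, 672 and 654, 827, 947 and 767 and 1969, 1763 and 1841 in the same order of groups. The last of these exceeded the sum by 732 ± 111 normalized counts (SE; limma adjusted p = 0.00846). All combination libraries of FABP3, AQP3 and TRARG1 were above all libraries of the other 3 groups.

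Among the libraries, combination replicate 1 was the one whose removal moved the FABP3, AQP3 and TRARG1 calls the most. Without it the departure had an adjusted p of 0.0908 for TRARG1, which was kept in the other 11 fits, 0.215 for FABP3 and 0.427 for AQP3. The FABP3 call was also lost without vehicle replicate 3 (0.0514), magnolol replicate 1 (0.0856) or combination replicate 3 (0.168), and AQP3's was kept only without vehicle replicate 2, dicoumarol replicate 1 or magnolol replicate 2, with at least 0.0514 otherwise. Without weights the adjusted p rose further for FABP3 (0.668), AQP3 (0.719) and TRARG1 (0.22). With no filter on low values it was 0.147, 0.253 and 0.0728, and with equal totals AQP3 was at 0.175.

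Genes of fat storage were also described by 5 lists together: lipid droplet, adipokines, fatty acid uptake, triglyceride synthesis and lipolysis. The lipid droplet and fatty acid genes counted above are among them. Of 85 symbols, 81 were in the table and 72 were tested. Dicoumarol raised 11 and lowered 0 of the 72, magnolol raised 27 and lowered 1, and the combination raised 37 and lowered 1, against 0.911%, 2.96% and 6.11% raised of all genes. With equal totals the counts raised and lowered were 10 and 1, 23 and 10, and 29 and 11. Over all 14819 genes they were then 87 and 219, 313 and 2263, and 540 and 3989. The departure lay above 0 in 56 of the 72 (77.8%) and in 52.0% of all genes tested, with a median of 11.9% of the gene's mean against 0.474% over all genes. It was called for 6 of them, all above, against 0.115% of all genes. These were PLIN1, PLIN2, PLIN4, FABP4, FABP3 and AQP3, already given above. The interaction lay above 0 in 48 (66.7%) and below in 24, against 50.1% of all genes above 0. Its median was 0.04, against 0.000374 over all genes. It was called for 3, all below, against 0.0405% of all genes: PLIN1, PLIN4 and ADIPOQ.

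Both compounds raised 19 of these genes when each was averaged over the other's absence and presence (the main effects of the fit), and all 19 combination means lay above the added expectation. The main effects include the combination libraries, so a choice by them favours a combination above the sum, and that count is a description only. In 9 of the 19 the interaction was below 0 and in 10 above. CD36, the fatty acid translocase, held 1785 to 1901 in vehicle, 3466 to 3931 with dicoumarol, 7839.9 to 9453 with magnolol and 12045 to 15809 with both, and its departure of 3344 ± 814 normalized counts (SE; limma adjusted p = 0.254) was not called. LPL, the lipase that frees fatty acids outside the cell, did not pass the test with dicoumarol alone (0.09 on the log2 scale, adjusted p = 0.813). It rose with magnolol, from 14288 to 17096 to 21237 to 26909.7, and stood at 31990.3 to 34945 with both, a departure of 8206 that was not called (adjusted p = 0.188). THRSP, a lipogenic nuclear protein, came near the threshold, at 185 to 229, 339.8 to 352, 1260.2 to 1593 and 1952 to 2479 in the same order (departure 661, adjusted p = 0.0556). LIPE (hormone-sensitive lipase) and ACSL1, which activates fatty acids, had departures of 639 and 2831 normalized counts, neither called (adjusted p = 0.273 and 0.0802).

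**Figure D3:**
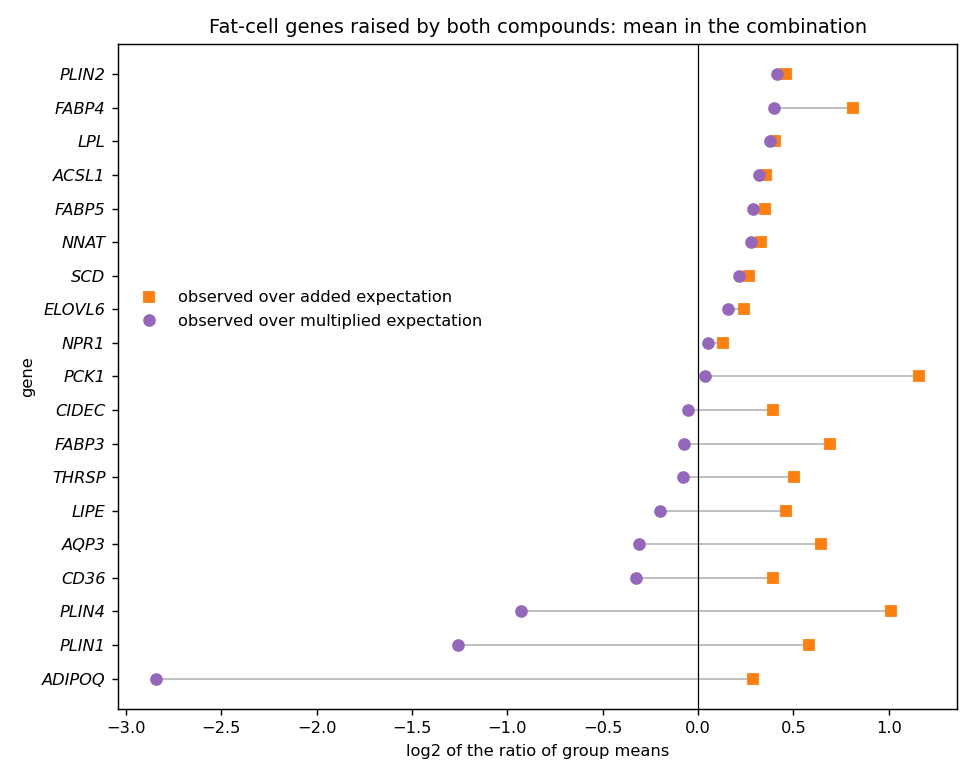
The 19 fat-storage genes with both main effects called above 0. The horizontal axis is the log2 ratio of the observed combination mean to the added expectation (squares) and to the multiplied expectation (circles). All squares lie right of 0, a side that the choice of genes favours. The circles run from ADIPOQ, far left, to PLIN2 and FABP4 on the right.

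PCK1 and DGAT2 rose with magnolol but did not pass the test with dicoumarol. PCK1, which helps make glycerol phosphate for triglycerides, held 12.7, 24.3 and 4.07 in vehicle and 52.6, 37.7 and 11.8 with dicoumarol, a log2 change of 1.31 (adjusted p = 0.281). It rose to 212, 210.2 and 130.5 with magnolol and stood at 562, 432 and 377 with both, close to the product of 446; neither test called it (departure adjusted p = 0.15). DGAT2, the last enzyme of triglyceride synthesis, overlapped between vehicle (528, 380.1 and 308) and dicoumarol (481, 385 and 384), rose with magnolol (1839, 2043 and 1717) and held 2992, 2867 and 2464 with both, with a departure of 896 (adjusted p = 0.233). Among the transcription factors, PPARG held 901 to 969, 967 to 1091, 1138 to 1251 and 1403 to 1474 in vehicle, dicoumarol, magnolol and combination, with a departure of 174 (adjusted p = 0.999). CEBPA rose in the combination (627 to 798 against 401 to 517 in vehicle), while the single compounds did not pass the test, and its interaction of 0.71 was not called (adjusted p = 0.625). None of the 25 adipogenic transcription factors tested was called in either test, against 0.081% (interaction) and 0.121% (departure) of all genes.

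In cAMP signalling the gene called in both tests was PRKAR2B, the RIIβ regulatory subunit of protein kinase A, which is abundant in fat cells. It held 2560.02, 2522 and 2653 in vehicle, fell slightly to 2243, 2265 and 2201 with dicoumarol, and was level at 2468, 2613 and 2595 with magnolol. With both it stood at 3255, 3215 and 3237, above every library of the other 3 groups. Neither compound alone raised it, and the 2 expectations nearly coincide (2217 added, 2219 multiplied). The departure was 1019 ± 132 normalized counts (SE; limma adjusted p = 0.00246) and the interaction 0.54 on the log2 scale (95% interval 0.40 to 0.69; limma adjusted p = 0.00179). Both calls were kept in every fit that left out a library and under every other setting run. Of 19 tested genes of cAMP signalling PRKAR2B was the only one called. Over all genes the interaction called 0.081% and the departure 0.121%. PRKAR1A, another regulatory subunit, fell with each compound (−0.37 and −0.42 on the log2 scale). Its interaction of 0.32 was not called (limma adjusted p = 0.62).

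For the 3 phosphodiesterase genes that fell with each compound, the combination did not differ from dicoumarol alone past the test (log2 differences of −0.07 for PDE4D, −0.06 for PDE7B and −0.39 for PDE4B; limma adjusted p = 0.778, 0.846 and 0.538). PDE4D held 1299, 1171 and 1308 in vehicle, 503, 536 and 525 with dicoumarol, 661, 629 and 659.7 with magnolol and 465, 549.7 and 478 with both. The combination libraries overlapped those of dicoumarol alone. Their mean of 497 was above the product of 269, and the sum, −88.1, is a level no library can reach. The interaction was 0.88 on the log2 scale (95% interval 0.64 to 1.12; limma adjusted p = 0.00179) and the departure 586 ± 62.2 normalized counts (SE; limma adjusted p = 0.000216). Both were called in all 12 fits that left out a library and under every other setting run.

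PDE7B, which also degrades cAMP, followed PDE4D, with 1361, 1562 and 1325 in vehicle, 533, 609 and 523 with dicoumarol, 735, 947 and 807 with magnolol and 497, 544 and 550.4 with both. The combination again overlapped dicoumarol. Its departure was 562 ± 83.9 normalized counts (SE; limma adjusted p = 0.00796) from a sum of −31.3, while its interaction of 0.71 was not called (adjusted p = 0.0741, but 0.0203 without magnolol replicate 2). With no filter on low values the departure was lost (0.0516). PDE4B fell from 1676, 1721 and 1255 to 635, 825 and 443, 609, 853 and 539 and 492, 578 and 362. In each of the 4 groups replicate 2 was the highest and replicate 3 the lowest. Neither measure was called (interaction 0.84, adjusted p = 1; departure adjusted p = 0.417). PDE3B, the phosphodiesterase through which insulin restrains lipolysis, rose with both, from 71.0, 63.5 and 82.5 in vehicle to 134, 153 and 161, with neither single compound past the test and neither measure called (interaction 0.56, adjusted p = 0.956). Of 15 phosphodiesterase genes tested, 3 fell with dicoumarol, 3 with magnolol and 3 with both, against 1.03%, 1.27% and 4.06% lowered of all genes; these were PDE4B, PDE4D and PDE7B each time. With equal totals the counts were 3, 6 and 4, against 219, 2263 and 3989 lowered of all 14819 genes.

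**Figure D4:**
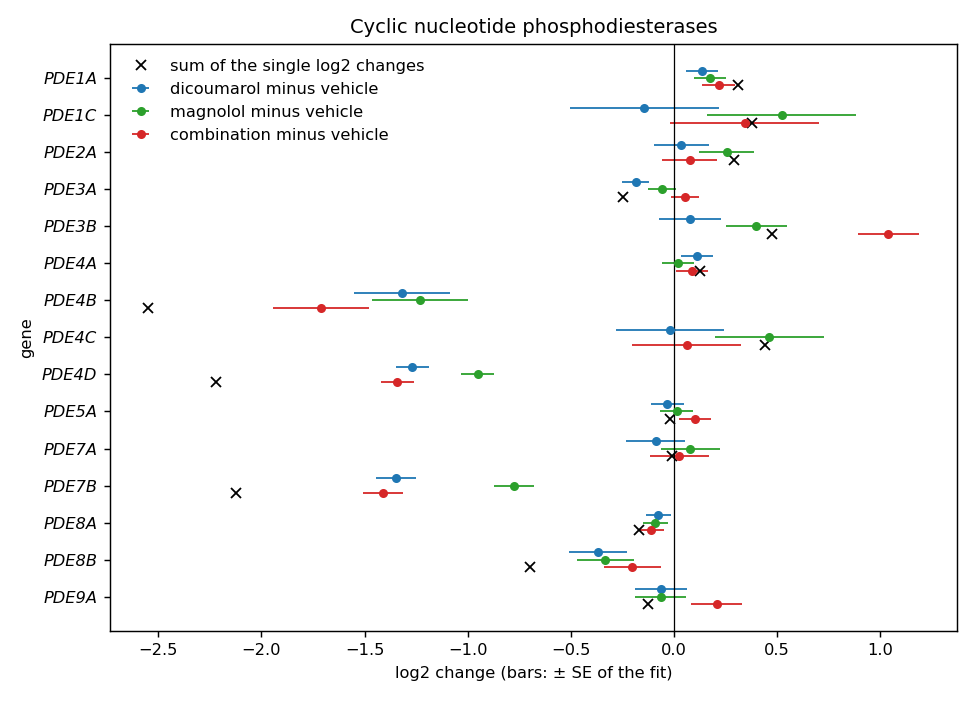
Log2 changes of the 15 tested phosphodiesterase genes against vehicle, with dicoumarol, magnolol and both (points, with the SE of the fit), and the sum of the 2 single changes (crosses). For PDE4B, PDE4D and PDE7B the cross lies well to the left of the combination, which stays near dicoumarol alone. PDE3B lies to the right.

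NR4A1, an immediate early transcription factor that cAMP induces, held 444, 321 and 423 in vehicle and fell to 189, 156 and 164 with dicoumarol and 232, 201 and 236 with magnolol. The combination, at 223, 238 and 191, overlapped magnolol and lay above every dicoumarol library. The interaction was 1.17 on the log2 scale (95% interval 0.77 to 1.57; limma adjusted p = 0.0198) and the departure 221 ± 34.6 normalized counts (SE; limma adjusted p = 0.011), from a sum of −3.32. The departure was lost without vehicle replicate 1 (0.0748) or 3 (0.0536), and the interaction was kept in 5 of 12 fits, those without vehicle replicate 2, dicoumarol replicate 1, magnolol replicate 1 or 3, or combination replicate 3, with up to 0.0862 otherwise. Across the other settings the departure was lost with no filter and without weights (0.0638 and 0.0975), and the interaction with no filter, without a variance trend and with limma-voom (0.0558 to 0.114). Its relative NR4A3 had an interaction of 0.93 that was not called (adjusted p = 0.74). Of 28 cAMP-responsive and immediate early genes tested, NR4A1 was the only one called. The interaction called 0.081% of all genes and the departure 0.121%. Among the 28, the interaction was above 0 in 16 and the departure in 18, against 50.1% and 52.0% of all genes.

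EREG, which encodes the growth factor epiregulin and lies outside the naming rule, fell with each compound. It held 3033, 2715 and 2929 in vehicle, 1619, 1615 and 1485 with dicoumarol, 2016, 1800.4 and 1693 with magnolol and 1451, 1408 and 1334 with both. Its departure was 879.8 ± 142 normalized counts (SE; limma adjusted p = 0.013) above a sum of 518, lost without vehicle replicate 1 (0.0918) or 3 (0.0536), or with no filter on low values (0.0638).

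EDNRA, IGF1 and CAT fell with each compound, and in the combination they lay within or near the range of the single compounds. EDNRA, the endothelin A receptor, held 2248, 2118 and 2238 in vehicle, 1217, 1313 and 1329 with dicoumarol, 1407, 1558 and 1419 with magnolol and 1212, 1439 and 1309.7 with both. The combination overlapped each single compound, above the sum of 546 and the product of 853. The departure was 774 ± 111 normalized counts (SE; limma adjusted p = 0.00555) and was called in all 12 fits that left out a library. The interaction was 0.63 on the log2 scale (95% interval 0.42 to 0.84; limma adjusted p = 0.0168), kept in 5 of the 12: those without vehicle replicate 2, dicoumarol replicate 3, magnolol replicate 2, or combination replicate 1 or 3, with up to 0.0862 otherwise, and lost with equal totals (0.0783) and without a variance trend (0.0992).

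IGF1, the insulin-like growth factor, held 4116, 4123 and 4438 in vehicle, 1942, 2168 and 2103 with dicoumarol, 3166, 3372 and 3230.3 with magnolol and 2317, 2556 and 2639.7 with both. The dicoumarol libraries lay below the magnolol libraries, and the combination lay between them. The departure was 1402 ± 239.8 normalized counts (SE; limma adjusted p = 0.0174) and the interaction 0.65 on the log2 scale (95% interval 0.42 to 0.88; limma adjusted p = 0.0244). CAT, the hydrogen peroxide-degrading enzyme catalase, held 30858, 29123 and 29359 in vehicle, 23098, 22470.1 and 21384 with dicoumarol and 20876, 24295 and 22271 with magnolol. At 25077, 25085 and 24188 with both, it was above the dicoumarol libraries and overlapped magnolol. CAT's departure was 9765 ± 1672 normalized counts (SE; limma adjusted p = 0.0174) and its interaction 0.56 on the log2 scale (95% interval 0.36 to 0.76; limma adjusted p = 0.0244).

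These calls were sensitive to single libraries. The interaction of IGF1 was kept only without combination replicate 1 and that of CAT only without magnolol replicate 2 or combination replicate 3, with adjusted p up to 0.122 and 0.131 otherwise. The departure of IGF1 was lost without any vehicle library, magnolol replicate 1 or 3 or combination replicate 2 (0.0547 to 0.0866), and that of CAT was kept only without vehicle replicate 2, dicoumarol replicate 1, magnolol replicate 2 or combination replicate 3, with up to 0.102 otherwise. Of the other settings, 3 of 10 ended the interaction call of IGF1 and 4 of 10 that of CAT (up to 0.175 and 0.136), and 2 of 9 ended the departure call of IGF1 and 4 of 9 that of CAT (up to 0.106 and 0.0882).

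CBLN4 and CTSC also lie outside the naming rule and complete the genes above the sum. CBLN4, a secreted synaptic protein of the cerebellin family, held 2332, 1711 and 1922 in vehicle, 833, 755 and 740.3 with dicoumarol, 1256, 1119.6 and 1143 with magnolol and 969, 804 and 757 with both, and its departure was 882 ± 149 normalized counts (SE; limma adjusted p = 0.0174) from a sum of −39.1. CTSC, the lysosomal protease cathepsin C, held 27806 to 30129, 17186 to 18845, 20468 to 22706 and 17508 to 19269 in the same order, and its departure was 7249 ± 1368 normalized counts (SE; limma adjusted p = 0.0442). In both genes the combination overlapped dicoumarol alone. CBLN4's call was lost without vehicle replicate 1 (0.106) or 3 (0.0584) or magnolol replicate 3 (0.0516), and CTSC's was kept only without magnolol replicate 2 or combination replicate 3, with up to 0.235 otherwise. Other settings ended CBLN4's call in 3 of 9 (up to 0.123) and CTSC's in 5 of 9 (up to 0.156).

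The sums of 4 genes called above it were below 0 (PDE4D, NR4A1, PDE7B and CBLN4), as were those of 16 tested genes in all. For these, some departure above the sum is fixed by the counts being at least 0.

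CSPG4, CRABP2 and ITGA7, which are on none of the fat-storage lists, rose with each compound, lay below the product in the combination, and in the case of CSPG4 and CRABP2 also below the sum. CSPG4, the NG2 proteoglycan of pericytes and progenitor cells, rose from 3684, 3199.8 and 3398 in vehicle to 7767, 7415 and 7673 with dicoumarol and 9350.3, 8044 and 9893 with magnolol. In the combination it held 11150.3, 10756 and 11592, above every magnolol library but below the sum of 13286 in each library. The interaction was −0.85 on the log2 scale (95% interval −1.07 to −0.64; limma adjusted p = 0.0011) and was called in every fit that left out a library and under every other setting run. The departure was −2120.04 ± 588 normalized counts (SE; limma adjusted p = 0.426), not called. CRABP2, a retinoic acid carrier, held 672, 709 and 762, 1223, 1227 and 1289, 1375, 1537 and 1473 and 1458, 1529 and 1654, so that the combination overlapped magnolol. Its departure of −447 ± 104 normalized counts (SE, limma adjusted p = 0.198) was not called. Its interaction was −0.72 on the log2 scale (95% interval −0.98 to −0.47; limma adjusted p = 0.0202), kept only without vehicle replicate 3, magnolol replicate 1 or combination replicate 3 (up to 0.099 otherwise), and lost under 3 of 10 other settings (up to 0.136).

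ITGA7, the α7 chain of a laminin-binding integrin of muscle, rose from 640.00, 669 and 631 to 1869, 1959.5 and 1838 with dicoumarol, 3135, 3419 and 3268 with magnolol and 5622, 5603 and 5559.7 with both, without overlap. Its interaction was −0.77 on the log2 scale (95% interval −1.04 to −0.50; limma adjusted p = 0.0202), kept only without vehicle replicate 2, magnolol replicate 1 or combination replicate 3 (up to 0.0862 otherwise), and lost under 4 of 10 other settings (up to 0.17). The combination lay above the sum of 4516, a departure of 1079 ± 296 normalized counts (SE; limma adjusted p = 0.426) that was not called, but was in the fit of the 4 groups alone (0.011). The muscle markers MYOD1, MYF5, PAX7 and MYOG were at 3.16 normalized counts or lower in every library. The summed level of the 8 muscle markers, nearly all DES, was 28.7 to 78.4 in vehicle, 94.2 to 101 with dicoumarol, 64.2 to 138 with magnolol and 144 to 159 with both, and its part in the ITGA7 values was not tested.

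PPL was the only gene called below the sum. It encodes periplakin, a linker of desmosomes to intermediate filaments, and held 7023, 6691 and 6150.5 in vehicle, 10042, 9111 and 8842 with dicoumarol, 6757, 6287 and 6453 with magnolol and 6462, 6240.1 and 7025 with both. Dicoumarol alone raised it, and the combination overlapped vehicle and magnolol. The departure was −2633 ± 482 normalized counts (SE; limma adjusted p = 0.0354) and was kept only without vehicle replicate 1 or combination replicate 3 (up to 0.175 otherwise), and lost with no filter (0.123) and without a variance trend (0.0937). The interaction of −0.48 was not called (adjusted p = 0.0879, but 0.0448 without combination replicate 3).

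Type I collagen, elastin and other matrix genes made up a list of which 26 were tested. The departure was below 0 in 20 and the interaction in 22, against 48.0% and 49.9% of all genes. Their medians were −8.61% of the mean and −0.17 on the log2 scale. None was called, against 0.121% (departure) and 0.081% (interaction) of all genes. Dicoumarol raised 5 and lowered 2, magnolol raised 11 and lowered 2, and the combination raised 12 and lowered 2, against 0.911%, 2.96% and 6.11% raised and 1.03%, 1.27% and 4.06% lowered of all genes. With quantile normalization the counts were 2 and 2, 6 and 3, and 6 and 3. COL1A1, the α1 chain of type I collagen, rose by 0.59 on the log2 scale with dicoumarol, 0.86 with magnolol and 0.85 with both (limma adjusted p = 0.0264, 0.000728 and 0.000378). The combination overlapped magnolol, and the interaction of −0.61 had a limma adjusted p of 0.708 (−0.19 with quantile normalization). ELN, elastin, held 44.8, 83.1 and 50.9 in vehicle, 207, 254 and 272 with dicoumarol, 167, 215 and 203 with magnolol and 269, 359 and 364 with both, with the largest interaction in size of the list, −1.30 (unadjusted p = 0.000564, adjusted p = 0.321). DCN, the proteoglycan decorin, fell with each compound and fell further with both (9261 to 9641, 6184 to 6962, 6483 to 6902 and 4285 to 4609), with an interaction of −0.04 (95% interval −0.23 to 0.16).

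The lists tied to dicoumarol's known targets held no call, against 0.081% (interaction) and 0.121% (departure) of all genes. NQO1 itself fell with each compound, from 2229, 2305 and 2328 in vehicle to 1673, 1775 and 1744 with dicoumarol and 1185, 1499 and 1278 with magnolol, and stood at 1265, 1352 and 1261 with both, overlapping magnolol. Its interaction was 0.38 (adjusted p = 0.675) and its departure 529 (adjusted p = 0.27, but 0.0453 without magnolol replicate 2). Of 18 tested NRF2 target genes, 3 fell with dicoumarol, 7 with magnolol and 8 with both, and none rose. Of all genes, 1.03%, 1.27% and 4.06% fell. With equal totals 14 fell with magnolol and 14 with both, against 2263 and 3989 of all 14819 genes. The interaction was above 0 in 14 of the 18, against 50.1% of all genes. Of 11 tested genes of the vitamin K cycle, none changed with dicoumarol, 1 rose with magnolol and 2 with both. Of all genes, 2.96% rose with magnolol and 6.11% with both. With equal totals none rose, 1 fell with magnolol and 2 with both, against the same 2263 and 3989 genes lowered of all 14819. Among 18 inflammatory and complement genes the signs were even, 9 and 9, in both measures. C3, the central complement protein, held 487 to 621 in vehicle, 270.4 to 336 with dicoumarol, 299 to 476 with magnolol and 149 to 222 with both, and its interaction of −0.16 (95% interval −0.68 to 0.35) was not called. PI15, a secreted peptidase inhibitor, fell by 1.09 with dicoumarol, 1.24 with magnolol and 1.78 with both on the log2 scale, with neither measure called. CIDEC, which fuses lipid droplets, held 289.5 to 386 in vehicle, 522 to 741 with dicoumarol, 731 to 834 with magnolol and 1239.9 to 1699.8 with both, and its combination mean of 1399 lay near the product of 1453 (departure adjusted p = 0.792).

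Among genes with both main effects called in the same direction, the interaction mostly had the opposite sign. In this balanced design the main effects are estimated independently of the interaction where the groups share a variance. Dicoumarol's main effect was called for 469 genes (3.16%; 1.51% higher and 1.65% lower) and magnolol's for 1341 (9.05%; 5.76% higher and 3.29% lower). Both main effects were above 0 and called for 148 genes, and for 97 of them (65.5%) the interaction was below 0, with a median of −0.15. Both were below 0 and called for 76 genes, and for 67 of them (88.2%) the interaction was above 0, with a median of 0.16. Over all 14819 genes, 50.1% lay above 0, and over the 13245 with neither main effect called, 49.6%. In most genes with both main effects called in the same direction, the combined log2 change was thus smaller than the sum of the single ones. In normalized counts the departure lay above 0 in 91 of the 148 raised genes (61.5%) and in 72 of the 76 lowered genes (94.7%), against 52.0% of all; unlike the log2 interaction, these counts are not independent of the choice of genes. Of the 148 raised genes, 40 lay between the sum and the product, 51 above both and 57 below both. With 1 library left out the share of raised genes with an interaction below 0 ranged from 59.2% to 70.4%, and the share of lowered genes above 0 from 79.7% to 92.2%.

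**Figure D5:**
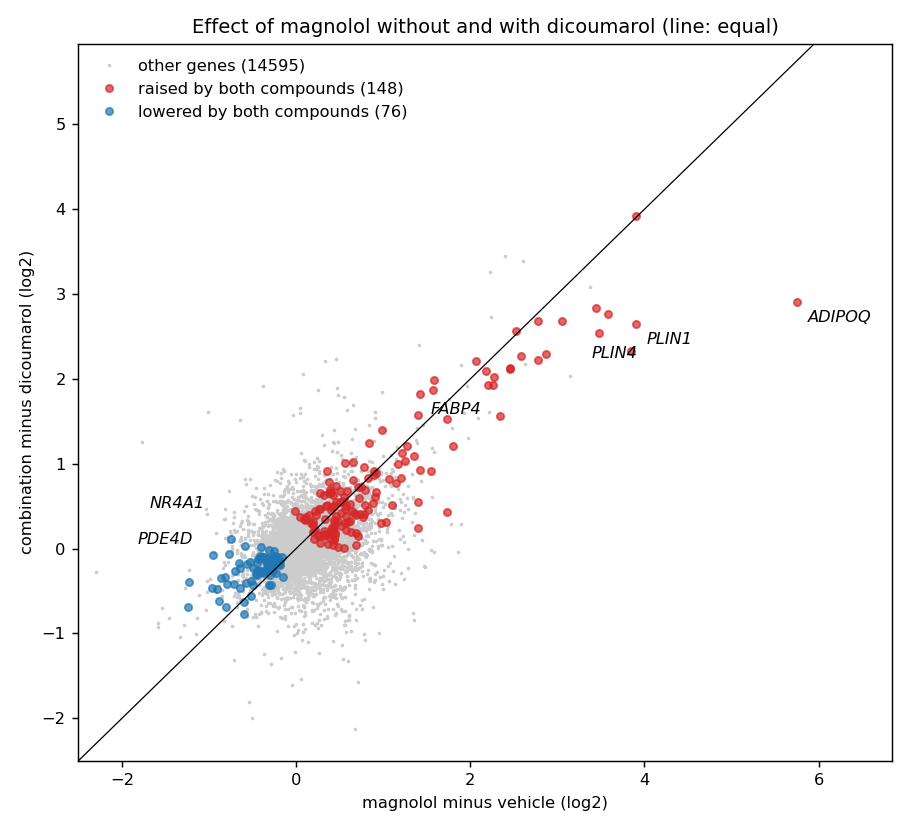
Log2 effect of magnolol without dicoumarol (horizontal) and with it (vertical) for 14819 genes, measured in groups that share no library. Red points are the 148 genes with both main effects called above 0, blue points the 76 with both called below 0, and the line marks equal effects. Most red points lie below the line, ADIPOQ the farthest, and most blue points lie above it.

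Mouse 3T3-L1 preadipocytes were given the same compounds in another induction medium, with insulin, 37.5 µM IBMX and 10% serum in place of the 12.5 µM IBMX and 2% serum of the DFAT cells. There, 0 of 15723 genes were called for the interaction and 0 for the departure (limma). At an unadjusted p under 0.05 the counts were 78 and 74, each under the share of 0.05 expected with no effect. The median SE of an interaction was 0.21 there and 0.14 in DFAT cells, and the tables were normalized separately, so no test was made between them. Of the 12 DFAT interaction genes, 11 had a tested mouse gene of the same symbol, and 8 of the 11 had the same sign. The share of all genes with the same sign is not given here. The mouse interaction was −1.27 for PLIN1 (SE 0.54, limma adjusted p = 1) and −1.17 for ADIPOQ (SE 0.75, adjusted p = 1). For PLIN4 it was −0.25 (SE 0.18). The other genes of the same sign were within their SE of 0, so their signs say little. These were PDE4D at 0.03 (SE 0.30), PRKAR2B at 0.05 (SE 0.15), IGF1 at 0.23 (SE 0.45), CRABP2 at −0.19 (SE 0.59) and ITGA7 at −0.27 (SE 0.35). NR4A1, EDNRA and CAT had mouse values of −0.10, −0.10 and −0.05, with the opposite sign to DFAT and within their SE of 0.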

How the data were processed

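The 12 DFAT libraries, in 4 groups of 3, are poly(A)-enriched and stranded (KAPA mRNA HyperPrep), per the labels' protocols. The signal values analysed are, per the labels' file description, DESeq2-normalized counts deposited by the authors. STAR, DESeq2 and bcl2fastq 2.19.1.403 are named in the submitters' processing notes, with the mouse build GRCm38; the pig build is not given in the sources used here. Dividing low values (up to 20 reads) by each library's step gave whole numbers, to 0.02, for 89.3% to 90.7%, so counts were not recovered and no count test was run. Depths were estimated from those steps. Replicate pairs differed by more than sampling noise (chi-square per gene 8.85 to 78.4, against 1).

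All 5 groups entered 1 model (10 residual degrees of freedom) in limma 3.58.1 under R 4.3.3, with variances moderated along a trend. Tests were two-sided, and p-values were adjusted by Benjamini-Hochberg over 14819 genes with a mean of at least 10; calls have an adjusted p under 0.05. The interaction used log2(value + 1), so a fold of a low gene is understated. The departure used normalized counts with weights of 1/(mean + dispersion × mean squared), the dispersion being the median over genes. Both were also run on simulated data, with dispersions drawn around that median and no deviation shared by replicate number. Departures there of genes with a sum near or below 0 were not counted as false calls. The simulation thus does not cover these features of the data. Named genes were all interaction calls, the 8 lowest-p departure calls in each direction with a mean of at least 100, called list members and a panel of 20 genes; 3 more were named to account for every call. Members, lists and panel were chosen with earlier results of these data known. A list of interferon-stimulated genes was written after its values were seen. The alternatives are in the closing section. Libraries with the same number deviated together in all 3 pairs between magnolol and combination (correlations 0.118, 0.212 and 0.345). Over the 4 groups, 9 of 18 same-number pairs were above 0.1, so elsewhere the block is an alternative. Of 34307 genes, 16875 had no symbol and were not named. Python 3.11.15 with pandas 2.3.3 and matplotlib 3.10.9 drew the plots.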

Additional observations from a re-analysis of the deposited data

Results flagged for a closer look

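The effect of magnolol differed between cells without and with dicoumarol by the interaction test in 12 genes, on the log2 scale: ADIPOQ −2.85, PLIN1 −1.26, PLIN4 −0.93, CSPG4 −0.85, ITGA7 −0.77 and CRABP2 −0.72 were below 0, and NR4A1 1.17, PDE4D 0.88, IGF1 0.65, EDNRA 0.63, CAT 0.56 and PRKAR2B 0.54 above. Magnolol raised PLIN1 by 3.90 without dicoumarol and by 2.65 with it. For NR4A1 the corresponding values were −0.82 and 0.35, the latter not called.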

How the results depend on the processing

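The interaction calls of ADIPOQ, PLIN1, CSPG4, PRKAR2B and PDE4D, 5 of 12, were kept in all 12 fits that left out a library and under all 10 other settings. The departure calls of PLIN4, PDE4D, PRKAR2B and EDNRA, 4 of 18, were kept in all 12 and all 9. For PDE4D the sum lay below 0, so some departure above it was fixed beforehand in every fit. No value of a named gene reversed while called. Leaving out 1 library gave 5 to 13 interaction calls, with 5 without dicoumarol or combination replicate 2, 6 without vehicle or dicoumarol replicate 1, and 7 without dicoumarol or magnolol replicate 3. It gave 9 to 19 departure calls, with 9 without vehicle replicate 3 and 10 without replicate 1 of vehicle, magnolol or combination. Dicoumarol against vehicle called 153 to 311 genes, from 153 to 165 when the omitted library was a dicoumarol one and 163 when it was vehicle replicate 1. Magnolol against vehicle called 400 to 717 (400 without vehicle replicate 1, 413 without magnolol replicate 3) and the combination 1012 to 1531. The combination called 175 to 371 against dicoumarol (175, 214 and 212 without dicoumarol replicates 1 to 3, 198 without combination replicate 3) and 44 to 98 against magnolol (44 without magnolol replicate 1; omitting combination replicate 1 or 3 gave 49 or 54). The main effects gave 333 to 411 for dicoumarol and 876 to 1288 for magnolol (876 without dicoumarol replicate 1). Among genes that both main effects raised, 59.2% to 70.4% had an interaction below 0, and among those lowered 79.7% to 92.2% above 0. Except for the 4-group and quantile fits of the main effects and their shares, the settings for the single and main effects were chosen after seeing the data.

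The other settings that moved a count were these. With no filter on low values, the interaction called 7 genes and the departure 4. Without a variance trend they called 5 and 10, and combination against magnolol 57. With equal totals the interaction called 6, magnolol against vehicle 2576, the combination against vehicle 4529 and the magnolol main effect 4952. Without weights the departure called 11. The cause of these moves was not tested. The 4-group fit (13 and 23), a minimum mean of 50 (12 and 18), quantile normalization (12 and 14), limma-voom (9) and pseudocounts of 0.5 and 5 (12 each) stayed within 1.5 times.

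With the replicate number as a block, the interaction called 34 genes (18 above, 16 below) and the departure 49 (42 and 7), with all 12 and 18 earlier calls among them. Of the genes named, the block added the interactions of PDE4B (adjusted p = 0.00232), PDE7B (0.00168), CBLN4 (0.00111), CTSC (0.00429), EREG (0.034) and PPL (0.00943), and the departures of PDE4B (0.000348), CRABP2 (0.0144), LPL (0.0309), NQO1 (0.0296) and PCK1 (0.0142). The single comparisons called 670 for dicoumarol, 1360 for magnolol, 2643 for both, 893 against dicoumarol and 290 against magnolol, and the main effects 936 and 2506. The labels do not say what a number marks. Same-number libraries correlated from −0.0219 to 0.345 (median 0.106, 9 of 18 pairs above 0.1) and different-number libraries from −0.244 to 0.0943 (0 of 36 above 0.1), and 11 of 12 libraries correlated best with their own number on average, a hint from the data and not the design.

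With 3 libraries a group, the smallest interaction called in the main fit was 0.54 (PRKAR2B, SE 0.07). Values of 0.71 (CEBPA), 0.84 (PDE4B) and 0.93 (NR4A3) were not called there. With the replicate number as a block, that of PDE4B was called (limma adjusted p = 0.00232) and those of CEBPA and NR4A3 were not.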

Other observations

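Genes of the interferon response, chosen as a list after their values were seen, had lower values in the combination than either expectation. None was called, against 0.081% (interaction) and 0.121% (departure) of all genes. Of 38 tested, 38 had an interaction below 0 and 38 a departure below 0, against 49.9% and 48.0% of all genes. The median interaction was −0.78. The lowest adjusted p was 0.362 for the interaction and 0.232 for the departure (limma). An unadjusted p under 0.05 was found for 29 in each, against 582 and 601 of the 14819 genes. The list was chosen by these values and its genes differed between the same libraries, so the counts are a description only. With the replicate number as a block 1 interaction and 2 departures were called. RSAD2 (viperin), an antiviral enzyme, held 298, 290.5 and 176 normalized counts in vehicle, 469, 335 and 891 with dicoumarol, 277, 722 and 334 with magnolol and 92.2, 291 and 197 with both. IFIT2, which binds foreign RNA, held 945, 1134 and 959 in vehicle, 1763, 1068 and 2749 with dicoumarol, 1055, 2362 and 1265 with magnolol and 479.6, 1034 and 703 with both. MX1, an antiviral GTPase, ranged over 7684 to 9551, 8616 to 12737, 9457 to 14397 and 6719.8 to 10414 in the same order of groups. In all 3 genes the single-compound libraries differed among themselves: dicoumarol replicates 1 and 3 and magnolol replicate 2 were high, and combination replicates 1 and 3 were low.

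The same libraries stood apart over the list. Against the vehicle mean, the median log2 level of the 38 genes was 0.40 and 0.54 in dicoumarol replicates 1 and 3 and 0.65 in magnolol replicate 2. It was −0.03 in dicoumarol replicate 2, and 0.10 and 0.06 in magnolol replicates 1 and 3. The combination replicates stood at −0.40, 0.05 and −0.33, and the 3 rosiglitazone libraries, given for scale, at −0.53, −0.33 and −0.37. Leaving out 1 library gave medians of the interaction from −0.93 (without dicoumarol replicate 2) to −0.59 (without magnolol replicate 2), with 37 of 38 genes below 0 without combination replicate 3 and all 38 in the other 11 fits. In these limma fits 0 genes of the list were called. The lowest adjusted p was 0.0533, without dicoumarol replicate 2. All these fits reuse the values by which the list was chosen, so they too are a description only.

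ADORA1, the adenosine A1 receptor, which restrains lipolysis, was picked after its values were seen. It held 172, 149 and 109.97 normalized counts in vehicle, 128, 131 and 138 with dicoumarol, 137, 167 and 168 with magnolol and 272, 242 and 279 with both, all of the last above every other library. Its interaction of 0.84 (limma adjusted p = 0.321) and its departure of 118 (adjusted p = 0.0823) were not called.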
